A study of Mus musculus with 7 samples.

Results

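The genes described here are the MHC class II family of mouse spleen with its transactivator, 10 genes of the 17920 in the table: the non-classical chains H2-Oa and H2-Ob, the non-classical chains H2-DMa, H2-DMb1 and H2-DMb2, the classical chains H2-Aa, H2-Ab1 and H2-Eb1, the invariant chain Cd74, and Ciita. They were taken by gene symbol. The family was chosen by earlier results of these data, selected on the FPKM of H2-Oa and H2-Ob, which were low in wild-type spleen at 6 h and not in the GdX-deficient library at 6 h. Every value that involves the 6 h libraries is therefore given for these 10 genes as a description, without a p-value. All 10 passed the filter on low values.

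RNA was measured in whole spleen of 8-week-old mice labelled C57BL/6. Every mouse had been injected intraperitoneally with lipopolysaccharide (LPS, a bacterial cell wall component) at 20 mg/kg, and no group without LPS was analysed here. The 4 groups were wild type at 90 min (2 libraries), wild type at 6 h (2 libraries), GdX-deficient at 90 min (2 libraries) and GdX-deficient at 6 h (1 library). The deficient mice are labelled GdX-/- for genotype and GdX-/Y in the treatment protocol, and by these labels lack the X-linked gene Ubl4a (GdX), whose product works in the delivery of newly made proteins to membranes. The labels do not say whether the libraries of a group came from separate mice, so p-values measure only the spread between these libraries.

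MHC class II molecules are pairs of an alpha and a beta chain that show peptides from endosomes to CD4+ T cells. The invariant chain CD74 holds their groove until endosomal proteases cut it down, H2-DM then trades its remnant for peptides, and H2-O, found mainly in B cells, binds H2-DM and restrains it. CIITA is the coactivator that class II promoters need, and it works through the factors RFX, CREB and NF-Y, which sit on the conserved X and Y boxes of these promoters. In the spleen most class II protein is carried by B cells, with dendritic cells and macrophages as further sources.

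The libraries were compared first for depth, genotype and cell types. Steps between the values of low genes in FPKM (fragments counted per transcript length and library depth) gave a rough estimate of 18100000 to 20250000 fragments per library. At 90 min the mean level of Ubl4a was 4.86 FPKM (SD 1.17, n = 2) without GdX and 6.56 FPKM (SD 1.33, n = 2) with it, a log2 difference of -0.37 (SE 0.31, limma adjusted p = 0.661), and at 6 h it was 10.56 FPKM against 12.9 FPKM (SD 1.51, n = 2). Ubl4a itself thus did not separate the genotypes beyond the spread at 90 min. Gm44504, an entry that overlaps it on chromosome X and was chosen once its values were known, lay at 0.66 to 1.86 FPKM in GdX-deficient and 14.5 to 51.1 FPKM in wild-type libraries. Defining B-cell, T-cell, macrophage and neutrophil markers were present in all libraries, as the spleen label states. Pancreatic markers, a check for neighbouring tissue, summed to at most 0.97 FPKM. Replicate 2 of GdX-deficient at 90 min stood apart, with a neutrophil marker sum of 4654 FPKM against 669 to 2514 FPKM in the others. Globin genes took between 7.73% and 30.9% of the FPKM sum, so they can shift the values of all other genes. H2-Ea-ps, the entry for the alpha chain that is a pseudogene in C57BL/6 mice, lay between 0 and 0.29 FPKM in the 7 libraries, in both genotypes. The beta-globin genes Hbb-b1 and Hbb-b2, the 2 genes called between the genotypes at 90 min, did separate them: Hbb-b1 was at 16577 FPKM or more in each GdX-deficient library and at most 13.8 FPKM in wild type, and Hbb-b2 at 4059 FPKM or more against at most 4.68 FPKM. As background, mouse strains carry different sets of adult beta-globin genes, and that of C57BL/6 is annotated as Hbb-bs and Hbb-bt. These were read in both genotypes. Hbb-bs was at 14413 to 38737 FPKM in GdX-deficient and 16267 to 54520 FPKM in wild-type libraries. Hbb-bt was at 3194 to 8470 FPKM and 3728 to 14502 FPKM. How fragments were divided among these similar globin genes is uncertain, and the part of any strain difference in the class II values was not tested.

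At 90 min in wild type the levels per length spanned a wide range. Cd74 was at 4704 and 6148 FPKM, H2-Ab1 at 2649 and 2474 FPKM, H2-Aa at 2301 and 2068 FPKM and H2-Eb1 at 913 and 1005 FPKM. The non-classical chains followed well below: H2-DMb2 at 161 and 190 FPKM, H2-Ob at 136 and 128 FPKM, H2-DMb1 at 112 and 115 FPKM, H2-Oa at 109 and 84.8 FPKM and H2-DMa at 64.7 and 72.2 FPKM. Ciita was the lowest at 7.60 and 10.1 FPKM. In this order no neighbouring pair of genes overlapped between its libraries, though H2-DMb1 and H2-Oa differed by less than the SD of H2-Oa (17.2 FPKM). At 6 h in wild type both H2-O chains had dropped in the order below all H2-DM genes, and the one neighbouring pair that overlapped was H2-DMb2 with H2-DMb1. The reference transcripts of that pair agree at 95.8% of 1080 aligned bases, so how fragments were divided between them is uncertain.

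**Figure D1:**
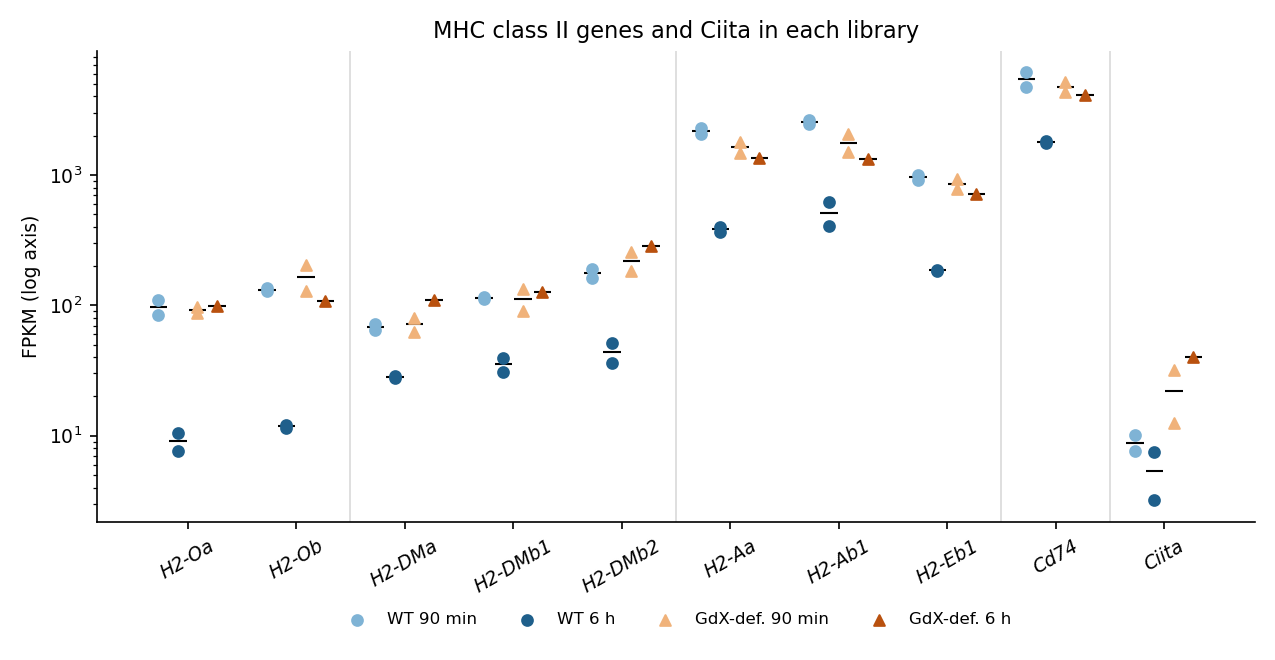
FPKM (log axis) of the 10 genes in each of the 7 libraries, with points for libraries and black lines for group means. In wild type at 6 h (dark blue) all 10 genes lie below wild type at 90 min, with H2-Oa at 7.66 and 10.5 FPKM against 84.8 and 109 FPKM, and the GdX-deficient library at 6 h (dark orange) lies above both wild-type 6 h libraries for all 10 genes.

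Promoter sequences of the family are shown here because the genes were low in the same libraries. Windows of 300 bases around annotated start sites (RefSeq, GRCm38.p6) were held for 7 of the 10 genes, in 8 entries. They were searched on both strands for GATTGG, the core of the Y box, for GCAAC, the core of the X box, and for AAC followed after any 3 bases by TGATG, a joined motif that runs from the end of the X box into the element next to it and can overlap GCAAC by its first 3 letters. The motifs were chosen with these sequences in view. The 80 bases around GATTGG are given 5′ to 3′ on the gene's strand, with the 3 motifs in capitals.
H2-Oa: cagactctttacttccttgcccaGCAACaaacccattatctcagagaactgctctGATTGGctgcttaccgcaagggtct
H2-Ob: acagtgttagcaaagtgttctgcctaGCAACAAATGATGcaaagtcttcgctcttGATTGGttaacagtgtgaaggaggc
H2-DMb1: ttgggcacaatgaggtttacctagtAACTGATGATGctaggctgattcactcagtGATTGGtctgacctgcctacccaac
H2-DMb2: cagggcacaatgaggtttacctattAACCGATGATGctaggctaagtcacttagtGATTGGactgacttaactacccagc
H2-Aa: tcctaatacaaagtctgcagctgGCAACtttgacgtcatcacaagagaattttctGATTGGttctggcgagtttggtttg
H2-Eb1: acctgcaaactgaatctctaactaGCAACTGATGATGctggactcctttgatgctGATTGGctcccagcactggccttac

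These windows lie at chr17:34092280-34092359 (H2-Oa), chr17:34238792-34238871 (H2-Ob), chr17:34153074-34153153 (H2-DMb1), chr17:34145103-34145182 (H2-DMb2), chr17:34287848-34287927 (H2-Aa, minus strand) and chr17:34305752-34305831 (H2-Eb1), the others on the plus strand. GATTGG began between 44 bases (H2-Oa) and 91 bases (H2-DMb2) upstream of the start site, and H2-Eb1 held it a second time on the other strand. H2-Ob, H2-DMb1, H2-DMb2 and H2-Eb1 held the joined motif, ending 16 to 19 bases before GATTGG. H2-Oa and H2-Aa did not hold it, and had GCAAC ending 27 bases before GATTGG. Of the 2 H2-DMa entries, 1 had no GATTGG and the other had it 199 bases upstream. Over all 32851 promoter windows of this length, 16.1% held GATTGG, 35.2% GCAAC, 0.615% the joined motif and 0.0822% both GATTGG and the joined motif. GATTGG with GCAAC, the pair that H2-Oa, H2-Ob, H2-Aa and H2-Eb1 held, was in 6.05%. A match is a description of the letters only. H2-Ob carried the joined motif and H2-Oa did not, and the part of the motifs in their values was not tested.

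In wild type, all 10 genes were lower at 6 h than at 90 min, and the H2-O chains were the lowest relative to their start. H2-Oa (Entrez gene 15001, chr17:34092340-34095234, plus strand, GRCm38) stood at 109 and 84.8 FPKM at 90 min and at 10.5 and 7.66 FPKM at 6 h. H2-Ob (Entrez gene 15002, chr17:34238903-34254414, plus strand) stood at 136 and 128 FPKM at 90 min and at 11.5 and 12.1 FPKM at 6 h. For both chains the 6 h libraries lay far under the 90 min libraries, at 9.34% and 8.95% of the 90 min mean. The differences were -3.29 (SE 0.27) and -3.38 (SE 0.28) on the log2(FPKM + 1) scale. Even at 6 h H2-Oa rested on about 230 and 170 fragments, estimated from length and depth, so it was still counted well above single fragments.

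The H2-DM chains, the peptide exchange factor, were lower by less. H2-DMa stood at 64.7 and 72.2 FPKM at 90 min and at 27.7 and 28.7 FPKM at 6 h, a log2 difference of -1.25 (SE 0.25). H2-DMb1 stood at 112 and 115 FPKM at 90 min and at 39.5 and 30.9 FPKM at 6 h (-1.67, SE 0.27). H2-DMb2 stood at 161 and 190 FPKM at 90 min and at 36.4 and 51.4 FPKM at 6 h (-1.99, SE 0.28). No H2-DM gene overlapped between the times, and H2-DMa kept 41.2%, H2-DMb1 31.0% and H2-DMb2, the lowest of them, 25% of the 90 min mean.

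The classical chains, which form the peptide-presenting molecule itself, lay between H2-O and H2-DM. H2-Aa stood at 2301 and 2068 FPKM at 90 min and at 401 and 367 FPKM at 6 h (-2.51, SE 0.28). H2-Ab1, its partner, stood at 2649 and 2474 FPKM and at 623 and 407 FPKM (-2.34, SE 0.33). H2-Eb1, whose alpha partner is the pseudogene above, stood at 913 and 1005 FPKM and at 183 and 188 FPKM (-2.36, SE 0.26). The 3 chains kept from 17.6% to 20.1% of their 90 min means, so both chains of the H2-A pair and the unpaired beta chain were lower to a like degree. Cd74 stood at 4704 and 6148 FPKM and at 1836 and 1763 FPKM (-1.58, SE 0.34). Ciita stood at 7.60 and 10.1 FPKM and at 3.19 and 7.53 FPKM (-0.71, SE 0.47), and its higher 6 h library nearly touched its lower 90 min library.

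All 10 genes were without overlap between the times in the lower direction, against 27.6% of the 11378 genes tested. The members' median log2 difference was -2.17, against 0.05 over all genes tested, and stayed between -2.28 and -2.08 over 14 alternatives. Because this comparison had drawn attention to the family, these values describe it and nothing is read from them.

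**Figure D2:**
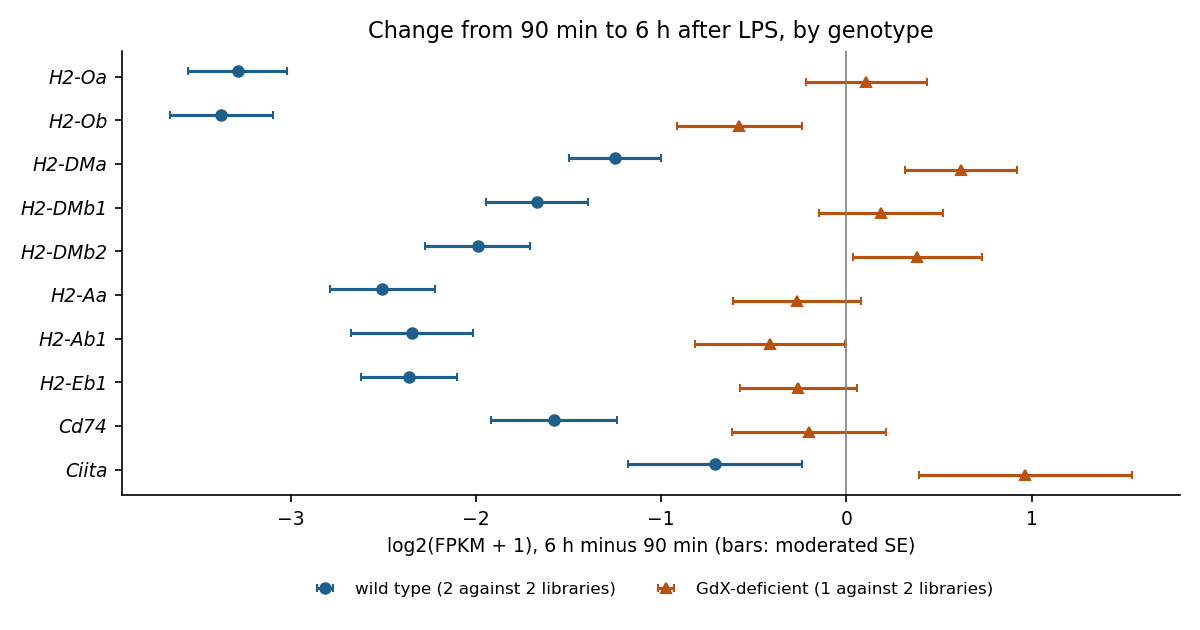
Difference between 6 h and 90 min after LPS on the log2(FPKM + 1) scale for each gene, in wild type (blue circles) and GdX-deficient spleen (orange triangles), with moderated standard errors. In wild type the values run from -3.38 (H2-Ob) to -0.71 (Ciita), while in GdX-deficient spleen, which rests on 1 library at 6 h, they run from -0.58 (H2-Ob) to 0.96 (Ciita).

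In GdX-deficient spleen 4 genes were above, 5 below and 1 between their 90 min libraries at 6 h. H2-Oa stood at 87.4 and 96.3 FPKM at 90 min and at 98.9 FPKM at 6 h. H2-Ob stood at 129 and 204 FPKM at 90 min and at 108 FPKM at 6 h. H2-Oa was thus just above, and H2-Ob below, both 90 min libraries. H2-DMa was at 62.7 and 80.5 FPKM and then 110 FPKM, H2-DMb1 at 90.9 and 134 FPKM and then 126 FPKM, and H2-DMb2 at 183 and 258 FPKM and then 284 FPKM. Among the H2-DM genes only H2-DMb1 lay between its 90 min libraries at 6 h, and the other two lay above theirs. H2-Aa was at 1784 and 1471 FPKM and then 1347 FPKM, H2-Ab1 at 2058 and 1489 FPKM and then 1316 FPKM, H2-Eb1 at 933 and 781 FPKM and then 713 FPKM, and Cd74 at 5152 and 4328 FPKM and then 4105 FPKM. These 4 genes lay below both 90 min libraries at 6 h. Ciita was at 12.6 and 31.8 FPKM and then 40.2 FPKM, above both.

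The log2 differences of this comparison ran from -0.58 (H2-Ob, SE 0.34) to 0.96 (Ciita, SE 0.58), with a median of -0.05 over the 10 genes and 0.25 over all genes tested. Outside both 90 min libraries were 9 of the 10 genes, 4 above (56.8% of all genes) and 5 below (15.8%). In limma no gene of the 11378 (0%) passed in this comparison, where 910 had an unadjusted p under 0.05, and the single 6 h library is assumed to vary like the other groups. Since wild type and GdX-deficient spleen share no library, the change over time can be set side by side: for H2-Oa the GdX-deficient difference exceeded the wild-type one by 3.39, for H2-Ob by 2.80, for the H2-DM genes by 1.86 to 2.37, for the classical chains by 1.93 to 2.24, for Ciita by 1.67 and for Cd74 by 1.38 on the log2 scale. No test of these differences is given, because they had been seen when the family was picked.

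At 6 h the GdX-deficient library therefore lay above both wild-type libraries for all 10 genes, where 54.9% of all genes did so. It was at least 2-fold higher on the log2(FPKM + 1) scale for all 10, against 16.5% of all genes. These counts come from the contrast that led to the family, and nothing is read from them. The mean FPKM ratio was 10.9 for H2-Oa, 9.14 for H2-Ob, 7.50 for Ciita, 6.46 for H2-DMb2, between 3.51 and 3.89 for H2-DMa, H2-DMb1, H2-Aa and H2-Eb1, 2.56 for H2-Ab1 and 2.28 for Cd74. The median log2 difference was 1.93 over the family and 0.32 over all genes, and quantile normalization, which brings the latter to -0.02, gave 2.27 for the family. Over all genes that scaling changed the limma calls from 331 higher and 119 lower to 166 higher and 104 lower, and equal sums without globin gave 214 higher and 39 lower. The GdX-deficient side of this comparison is 1 library.

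At 90 min the genotypes were compared with 2 libraries on each side, a contrast that did not lead to the choice of the family, although it shares the wild-type 90 min libraries with the one that did. None of the 10 genes passed, against 0.0176% of all genes (2 genes), and none passed under the 14 alternatives. The count over all genes was 173 or 183 without replicate 1 or 2 of wild type at 6 h, 181 with only the libraries compared, 42 or 6 without replicate 2 or 1 of wild type at 90 min, and 13 without replicate 1 of GdX-deficient at 90 min. An unadjusted p under 0.05 was reached by 862 of all genes tested. The libraries did not overlap for 3 of 10, against 47.5% of all genes. H2-Aa was at 1784 and 1471 FPKM without GdX and at 2301 and 2068 FPKM in wild-type spleen, a log2 difference of -0.43 (SE 0.28, limma adjusted p = 0.637). H2-Ab1 stood at 2058 and 1489 against 2649 and 2474 FPKM (-0.55, SE 0.33, limma adjusted p = 0.630). Both chains of the H2-A pair were lower in each GdX-deficient library, within the spread that the fit assigns to them. Over the 14 alternatives the difference ran from -0.57 to -0.13 for H2-Aa and from -0.78 to -0.20 for H2-Ab1.

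Ciita was the third gene without overlap, and it was higher. Its level was 12.6 and 31.8 FPKM without GdX against 7.60 and 10.1 FPKM in wild type, a log2 difference of 1.11 (SE 0.47, limma adjusted p = 0.621). Over the 14 alternatives that difference ran from 0.47 to 1.75. Ciita also varied most between replicates, with a pooled SD of 0.68 on the log2 scale against a median of 0.25 over the family. The remaining genes had log2 differences from -0.19 (Cd74) to 0.31 (H2-DMb2), with limma adjusted p between 0.681 and 0.963. With equal sums without globin, which moves the median of all genes from 0.07 to 0.25, H2-Oa, H2-DMb1, H2-Eb1 and Cd74 turned from lower to higher, and with quantile normalization H2-Oa and H2-DMb1 did. Ciita has the longest transcript of the family (4237 bases against 1088 to 2670), and across 3097 genes with 1 listed transcript, which are not independent replicates, the genotype difference correlated with transcript length (Spearman's rho 0.374 for the 90 min contrast and 0.266 for the 6 h one). Between the wild-type replicates it was -0.465 at 90 min and -0.605 at 6 h. The wild-type time comparison showed -0.0133. The part of transcript length in the Ciita values was not tested.

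Ratios within a library do not depend on how the library was scaled. The summed FPKM of H2-Oa and H2-Ob over that of the H2-DM genes was 0.726 and 0.565 in wild type at 90 min and 0.212 and 0.178 at 6 h, 3.31 times lower. In GdX-deficient spleen it was 0.641 and 0.635 at 90 min and 0.399 at 6 h. The inhibitor was thus lower relative to H2-DM at 6 h in both genotypes, and the GdX-deficient library lay between the wild-type groups. Taken chain by chain, the wild-type ratio was 4.44 times lower at 6 h for H2-Oa over H2-DMa and 3.07 times lower for H2-Ob over the sum of H2-DMb1 and H2-DMb2. H2-Oa over H2-Ob ranged from 0.473 to 0.915 with no separation of the wild-type times. H2-DM per 100 FPKM of classical chains was 5.75 and 6.80 in wild type at 90 min and 8.58 and 11.5 at 6 h, but the GdX-deficient libraries at 90 min, at 7.06 and 12.6, spread over both wild-type 6 h values, and at 6 h it was 15.4. H2-O per 100 FPKM of classical chains was 4.18 and 3.84 in wild type at 90 min and 1.82 and 2.06 at 6 h, below all GdX-deficient libraries (4.52 to 8.02).

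H2-O is carried mainly by B cells, so B-cell markers were set beside it. The summed level of 10 markers was 1719 and 1639 FPKM in wild type at 90 min and 561 and 633 FPKM at 6 h. It was 1434 and 2387 FPKM in GdX-deficient spleen at 90 min and 2038 FPKM at 6 h. The marker sum was thus low in the same libraries as the class II genes. No marker was at 0 in any library. In the wild-type time comparison 4 of the 10 markers passed, all lower, where 6.32% of all genes tested passed as lower. They were Cd79a (-3.04, limma adjusted p = 0.00128), part of the B-cell receptor, Fcer2a (-2.80, 0.00131), Blk (-1.64, 0.00995) and Cr2 (-1.58, 0.0217). Markers that did not pass included Ms4a1 (-1.06, 0.107), Pax5 (-0.33, 0.502), Ebf1 (-0.13, 0.803) and Cd22 (0.57, 0.479). In bulk spleen, fewer B cells and less RNA per B cell cannot be told apart.

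Per unit of that B-cell sum, the groups of genes parted. H2-O over the B-cell sum was 0.143 and 0.130 in wild type at 90 min and 0.0392 and 0.0313 at 6 h. In GdX-deficient spleen it was 0.151 and 0.126 at 90 min and 0.102 at 6 h. H2-DM over the same sum was 0.196 and 0.230 in wild type at 90 min and 0.185 and 0.175 at 6 h, and 0.235, 0.198 and 0.255 in the GdX-deficient libraries. Beside this sum H2-O was lower in wild type at 6 h, whereas H2-DM was nearly level. Single markers differ: Cd79a (-3.04) and Fcer2a (-2.80) were lower by nearly as much as H2-Oa (-3.29), while Pax5 (-0.33) was not. H2-O was picked for its low values in these libraries, so its ratio is a description. The classical chains over that sum were 3.41 and 3.39 in wild type at 90 min and 2.15 and 1.52 at 6 h, but the GdX-deficient libraries at 90 min spread as far, at 3.33 and 1.57. Cd74 over that sum overlapped between the wild-type times, at 2.74 and 3.75 against 3.27 and 2.79. The ratios follow the summed list, which Cd79a leads, and the part of cell numbers in them was not tested.

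**Figure D3:**
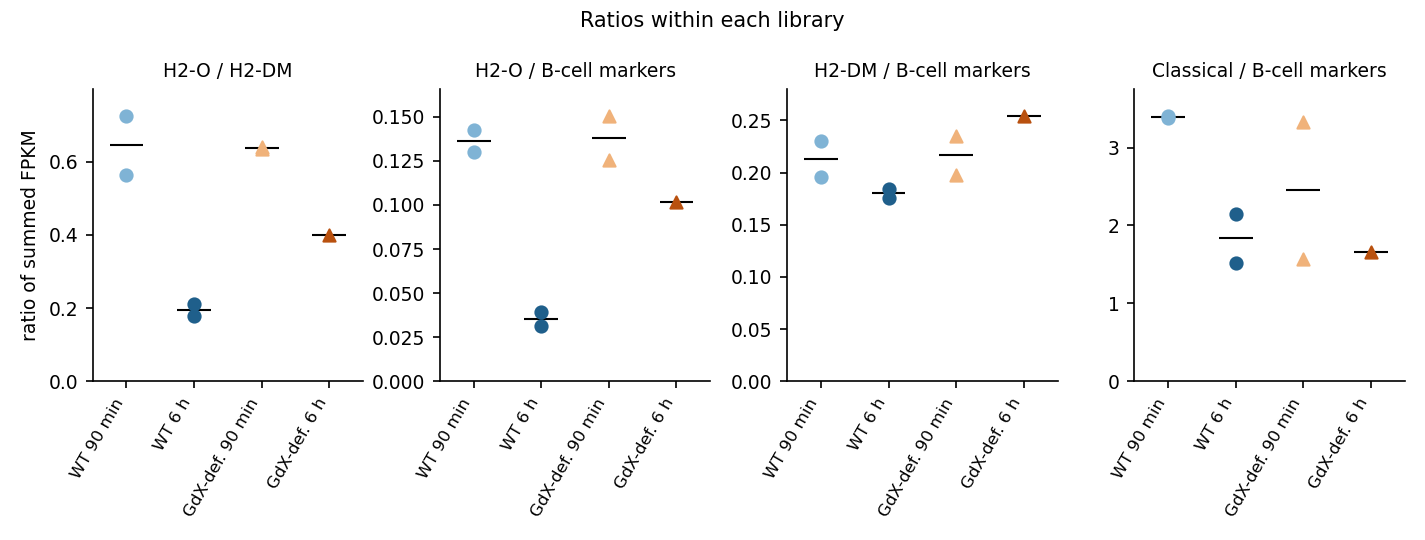
Ratios of summed FPKM within each library, with points for libraries and lines for group means: H2-Oa plus H2-Ob over the H2-DM genes, then H2-O, H2-DM and the classical chains over the sum of 10 B-cell markers. H2-O over B-cell markers lies at 0.0392 and 0.0313 in wild type at 6 h and at 0.102 or more in all other libraries, while H2-DM over B-cell markers lies between 0.175 and 0.255 throughout.

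Markers of other cells that carry class II moved too. Over all genes tested, 6.32% passed as lower at 6 h in wild type. Of the 7 dendritic cell markers tested of 8 listed, 4 passed as lower (Itgax, Zbtb46, Clec9a and Siglech). The sum of the list was higher, 311 and 389 against 237 and 253 FPKM, with Ccr7 (213 and 331 against 139 and 160 FPKM, limma adjusted p = 0.191) the largest part. Of 8 macrophage and monocyte markers 4 passed as lower (Vcam1, Cd5l, Csf1r and Spic). Marco did not pass and was at 275 and 160 against 129 and 105 FPKM (0.85, limma adjusted p = 0.131). The list summed to 514 and 404 against 666 and 665 FPKM. Of 8 T-cell markers 4 passed as lower (Thy1, Cd3g, Lck and Cd3e), with sums of 210 and 163 against 487 and 409 FPKM over the list. Of 7 red cell markers all had lower means and 2 passed, and of 6 neutrophil markers none passed. In the GdX-deficient library at 6 h these sums were 231 FPKM for dendritic cell, 785 FPKM for macrophage and 372 FPKM for T-cell markers, against 205 and 124, 564 and 519, and 331 and 451 FPKM at 90 min. Their part in the class II values was not tested.

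Along chromosome 17 the class II genes are interleaved with genes of class I processing. From H2-Oa to the end of H2-Eb2 the table held 14 genes in 249 kb, 8 of them from the family. Of the other 6, the 5 that are not class II genes had higher mean levels at 6 h than at 90 min in wild type. Tap2, a subunit of the peptide transporter for class I, rose from 69.2 to 148 FPKM on average (log2 difference 1.09, SE 0.24, limma adjusted p = 0.0233), a call lost with equal sums without globin or without either wild-type 90 min library. Psmb9 (0.72), Tap1 (0.60), Psmb8 (0.52) and Brd2 (0.44) did not pass. The sixth, H2-Eb2, was lower. The members in the interval had a median of -2.35 against 0.56 for the other 6. H2-K1 and H2-D1, the classical class I genes outside the interval, were picked for comparison after their values were seen and differed by -0.05 (SE 0.29, limma adjusted p = 0.938) and -0.14 (SE 0.29, limma adjusted p = 0.792).

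**Figure D4:**
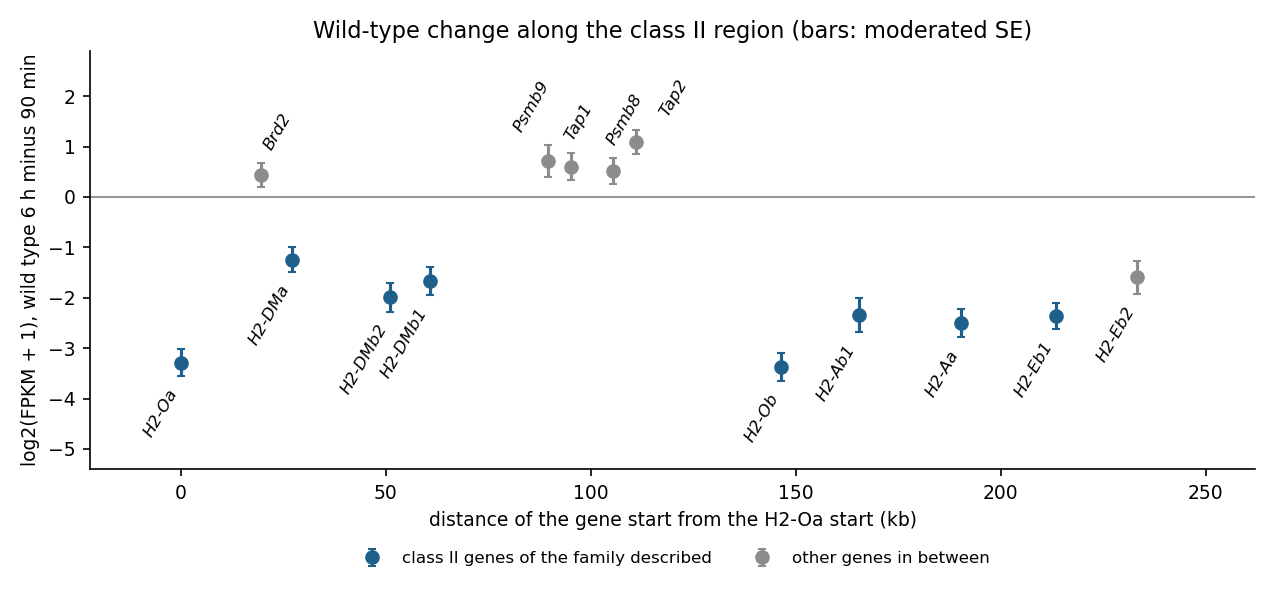
Difference between 6 h and 90 min in wild type on the log2(FPKM + 1) scale against the distance of each gene's start from that of H2-Oa in kb, with moderated standard errors. The class II genes of the family (blue) and H2-Eb2 lie between -3.38 and -1.25, while Brd2, Psmb9, Tap1, Psmb8 and Tap2 (grey) in between lie from 0.44 to 1.09.

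The other genes of the pathway were taken from a list of 25, of which 24 were tested and H2-Ea-ps was too low. In wild type 3 were lower at 6 h at limma adjusted p under 0.05, where 6.32% of all genes were, and 0 were higher. An unadjusted p under 0.05 was reached by 7 of the 24, a share near the 28.7% of all genes. Scaling each library to the same FPKM sum without globin changed the calls over all genes from 499 higher and 719 lower to 191 higher and 517 lower. H2-Eb2, a class II beta chain gene outside the family list, fell from 15.4 and 13.5 FPKM to 2.97 and 5.57 FPKM (-1.59, SE 0.32, limma adjusted p = 0.0178). Its GdX-deficient levels were 15.9 and 20.0 FPKM at 90 min and 30.2 FPKM at 6 h. At 6 h it was higher than in wild type by 2.61 (SE 0.40) on the log2 scale. The GdX-deficient side of that comparison is 1 library, assumed to vary like the other groups. As for each of the 10 members, the lowest group mean of H2-Eb2 was that of wild type at 6 h. Its wild-type call was lost without a filter on low values, and also without replicate 1 of wild type at 90 min (limma adjusted p up to 0.0936).

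Cd83, which shields surface class II from ubiquitin-driven turnover, fell from 727 and 651 FPKM to 111 and 142 FPKM in wild type (-2.44, SE 0.51, limma adjusted p = 0.0193). In GdX-deficient spleen it was at 539 and 142 FPKM at 90 min and at 81.2 FPKM at 6 h, below both. Without a filter the wild-type call of Cd83 was lost (limma adjusted p = 0.0982). Cst3, an inhibitor of cysteine proteases, fell from 679 and 578 FPKM to 339 and 234 FPKM (-1.15, SE 0.29, limma adjusted p = 0.0375), a call lost under 7 of 14 alternatives. March1 and March8, ligases that mark class II for turnover, did not pass in wild type (-0.19 and -1.03, limma adjusted p = 0.807 and 0.0718). The proteases and reductase of the endosome, among them Ctss (-0.43) and Ifi30 (-0.46), did not pass either.

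The factors on class II promoters showed no call. None of the 7 tested, RFX subunits Rfx5 (0.16), Rfxap (0.23) and Rfxank (-0.21), NF-Y subunits Nfya (-0.58), Nfyb (-0.34) and Nfyc (0.40), and Creb1 (-0.86), passed in wild type over time, and 1 had an unadjusted p under 0.05. None of 5 regulators of Ciita passed, among them Irf1 (-0.40), Irf8 (-0.39), Spi1 (0.43) and Prdm1 (-0.90), the last a repressor of Ciita. At 90 min no pathway gene passed between the genotypes, and 3 of 24 had an unadjusted p under 0.05, against 7.58% of all genes. Over time in GdX-deficient spleen none passed, and 5 of 24 did so unadjusted, against 8% of all genes.

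**Figure D5:**
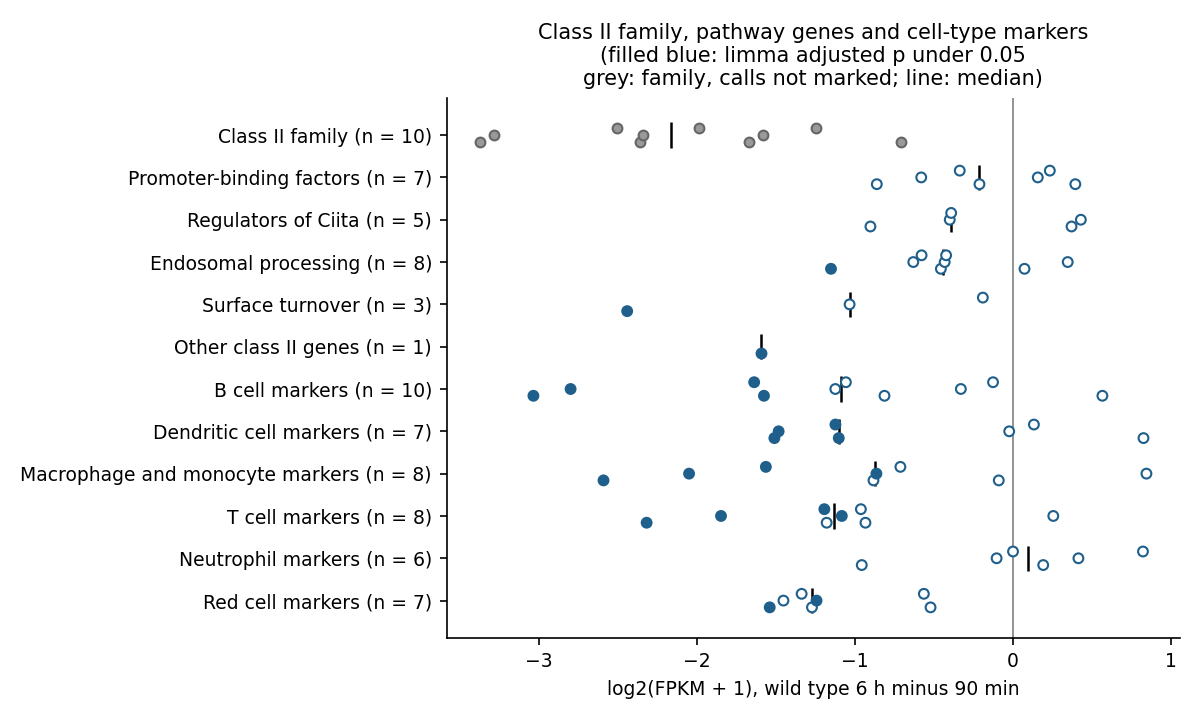
Difference between 6 h and 90 min in wild type on the log2(FPKM + 1) scale for the class II family, the pathway lists and the cell-type marker lists, with 1 point per gene tested, filled blue where limma adjusted p was under 0.05 (calls not marked for the family, in grey), and a line at the median. The family has its median at -2.17, the promoter-binding factors at -0.21 and the B-cell markers at -1.09.

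The genes whose pattern was most like that of the H2-O chains were found by Pearson's r of log2(FPKM + 1) over the 7 libraries, which fall into 4 groups and share their scaling, as a description. For H2-Oa they were Spic (0.996), Cd79a (0.995), Smim1 (0.994), Fah (0.993) and Acbd4 (0.990). For H2-Ob they were Matk (0.998), Cd37 (0.995), Cyp4f18, Flt3l and Wbp1 (each 0.994). The sizes varied: the wild-type time difference was -3.04 for Cd79a and -2.94 for Cyp4f18 on the log2 scale, while Spic was at 97.2 and 91.5 FPKM in wild type at 6 h and between 164 and 185 FPKM elsewhere. H2-Ob had r of 0.981 with H2-Oa, and 23 genes had a higher one. Among the other members r with H2-Oa ran from 0.925 (H2-Ab1) to 0.980 (H2-DMb1), apart from Ciita, at 0.644, which 2431 genes exceeded.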

How the data were processed

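The authors deposited 1 table of FPKM values per gene, and its headers name the 7 libraries. The submitters' processing notes list HISAT, HISAT2 2.0.4, Bowtie2, RSEM and the build GRCm38.p5, with no role given. Filters are not given in the sources used here. With FPKM only, the count tests planned for counts could not be run. Values were converted to log2(FPKM + 1), which understates changes of low genes, and the 11378 genes with a mean of at least 1 FPKM were fitted with limma 3.58.1 in R 4.3.3 over 4 groups (empirical Bayes with a trend, two-sided, Benjamini-Hochberg over all genes, threshold 0.05). "Called" means past that threshold. Members, lists and tests were chosen with earlier results of these data known. Named genes were the members, Ubl4a, pathway genes past the threshold, the 5 genes most like each H2-O chain, antigen receptor segments and predicted genes aside, and list markers. Other genes, pathway genes that did not pass and those of the class II interval were named after their values were seen. Gene positions are those of GENCODE M21. Fragments were estimated from steps of low FPKM values in genes with 1 transcript. On simulated data for 11378 genes, 200 genes were set to differ by 2 on the log2 scale. Of these, limma recovered 57.5% in the wild-type time comparison and 67% between genotypes at 90 min. It recovered 19% over time in GdX-deficient spleen and 0% between genotypes at 6 h. How far these shares vary from run to run was not tested, so the last 2 are not compared. Whether the 0% holds for the real libraries, where genes were called at 6 h, was not tested either. In both of these comparisons 1 side is 1 library, so a gene not called there says little. Single values of some listed genes are not reported here.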

Additional observations from a re-analysis of the deposited data

Results flagged for a closer look

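For 4 genes the time comparison ran in opposite directions in the genotypes, with every wild-type library at 6 h below both at 90 min and the GdX-deficient library at 6 h above both of its own. The GdX-deficient difference minus the wild-type one was 3.39 for H2-Oa, 1.87 for H2-DMa, 2.37 for H2-DMb2 and 1.67 for Ciita on the log2 scale. These differences were not tested, and the GdX-deficient side rests on 1 library at 6 h. H2-Oa was above its 90 min libraries by only 0.11 on average.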

How the results depend on the processing

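Over the alternatives, 504 of 540 values of single members stayed within the replicate spread or on their side of the threshold, 21 moved and 15 changed sign. None of the sign changes was in wild type over time or between genotypes at 6 h. Between genotypes at 90 min, quantile normalization gave 0.082 for H2-Oa and 0.14 for H2-DMb1, and equal FPKM sums without globin gave 0.14 for H2-Oa, 0.17 for H2-DMb1, 0.042 for H2-Eb1 and 0.022 for Cd74. Leaving out 1 library gave -0.25 to 0.11 for H2-Oa, -0.038 to 0.62 for H2-Ob, -0.12 to 0.23 for H2-DMa, -0.32 to 0.24 for H2-DMb1 and -0.38 to 0.0053 for Cd74. Over time in GdX-deficient spleen, Cd74 was 0.19 with quantile normalization, and H2-DMb1 was -0.092 to 0.47 leaving out 1 library. The members' median changed sign at 90 min with quantile normalization (0.11), equal sums (0.16) and leaving out 1 library (-0.092 to 0.12), and in GdX-deficient spleen over time with quantile normalization (0.091). At 6 h it was 2.27 and 2.20 under these scalings, and H2-O minus the H2-DM and classical chains was 1.03 against 1.28.

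Genes called in wild type over time (1218) were 635 without a filter, 708 with equal sums, and 450 to 1774 leaving out 1 library. Between genotypes at 90 min (2) they were 181 with only the compared libraries and 2 to 183 leaving out 1. At 6 h (450) they were 90 without a filter, 233 with a mean of at least 5 FPKM, 270 with quantile normalization, 253 with equal sums, 885 with only the compared libraries and 627 to 3035 leaving out 1. Over time in GdX-deficient spleen (0) they were 22 without a filter, 251 with only the compared libraries and 0 to 236 leaving out 1. Pathway genes called in wild type (3) were 0 without a filter, 5 with quantile normalization and 1 to 4 leaving out 1. At 90 min (0) there was 1 with only the compared libraries and 0 to 1 leaving out 1, at 6 h (1) 0 without a filter, 2 with either scaling and 1 to 5 leaving out 1, and in GdX-deficient spleen (0) 1 with only the compared libraries and 0 to 1. The ratio of H2-O to H2-DM in wild type was 3.31 times lower at 6 h, 4.44 times with the alpha chains alone and 3.07 times with the beta chains alone. The cause of these shifts was not tested.

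With the replicate block, 2345 genes were called in wild type over time, 3383 at 6 h and 37 in GdX-deficient spleen, with 5 pathway genes in the first and 6 in the second. The replicate numbers were not shown to pair libraries: first replicates deviated together in wild type (r = 0.768 across genes) but not across genotypes at 90 min (-0.12) or in wild type at 6 h with GdX-deficient at 90 min (0.08). Tests on counts were not run, and depth is an estimate.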
